A study of Mus musculus with 25 samples.

Results

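The comparison set 3 libraries of the anterior medial palate against 3 libraries of the posterior medial palate, over every gene with at least 5 RPKM (reads scaled to transcript length in kilobases and to library size) in at least 3 of these 6 libraries. Of the 37406 genes in the deposited table, 10359 met that minimum and 17925 were listed at 0 in all 6 libraries. A further 484 genes reached 5 RPKM in 2 of the 6 libraries and stayed out, while 513 reached it in 3 and came in. The study profiled the mouse palate at E14.5 by RNA sequencing of tissue cut out by laser capture microdissection, with 25 libraries over anterior and posterior parts of 4 compartments (medial, lateral, oral and nasal). Both medial groups came from wild type embryos of the CD1 strain at that stage, with no treatment or allele between them per the labels, so that position along the anterior to posterior axis was the labelled difference. The captured tissue is mesenchyme with whatever vessels, blood, nerve and epithelium lay in the cut, and in such bulk samples fewer cells of a type and less RNA per cell cannot be told apart. The labels do not say whether the replicates of a group came from separate embryos, so the p-values measure the spread between these samples, which may be technical.

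The secondary palate grows from the maxillary processes as a pair of shelves that lift above the tongue, meet at the midline and fuse. Its mesenchyme comes mostly from the cranial neural crest. The anterior part becomes the bony hard palate and the posterior part includes the muscular soft palate, and both express their own sets of homeobox and T-box transcription factors, with BMP, FGF, Wnt and Shh signals passing between mesenchyme and epithelium. The medial compartment is the part of each shelf nearest the midline, where the shelves meet.

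The label of palatal mesenchyme fitted the 6 libraries: 13 of 14 neural crest mesenchyme markers were tested and their summed level was 1590 to 1627 RPKM in the anterior and 1558 to 2309 RPKM in the posterior libraries, while the 31 skeletal muscle markers summed to 22.5 to 60.1 RPKM over all 6. Every other cell list summed higher than muscle, with red cells at 463 to 1104, myeloid cells at 121 to 525, endothelium at 262 to 409 and epithelium at 158 to 295 RPKM. The lists differ in length and in the abundance of their genes, so the sums do not give the share of a cell type. The posterior libraries were less alike than the anterior ones. Pearson correlations across genes were taken between log2 values that were not centred per gene and that share each library's depth. They were 0.921 to 0.940 among the anterior libraries and as low as 0.552 where posterior medial 2 was one of the pair. Posterior medial 2 had 386 of the tested genes at 0 against 0 to 9 in the other 5, and 12935 genes above 0 against 16418 to 18030. The alignment names in the headers of the study's supplementary tables place posterior medial 1 in another sequencing run than the other 5 libraries, and its name there carries "ERK2 WT", which the labels do not explain. The fit without this library is therefore also the fit within 1 run as those names give it.

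Across the 10359 genes, 11 differed at a Benjamini-Hochberg adjusted p under 0.05 by limma on log2(RPKM + 0.1), which is 0.106% of those tested. They were 8 genes higher in the posterior medial palate (0.0772%) and 3 higher in the anterior (0.0290%). At the thresholds the study set between pairs of compartments, a P under 0.05 (taken here as unadjusted) with a fold change over 2, there were 298 genes (2.88%), 153 higher in posterior (1.48%) and 145 higher in anterior (1.40%). The median fold change of these was 3.11 for the posterior and 3.22 for the anterior genes, and 17 genes in each direction passed 16-fold. In 290 of the 298 the values of both groups did not overlap, beside 1233 genes (11.9%) of all those tested. Of the 298, 102 reached 5 RPKM in every library of 1 group and in none of the other, as did 8 of the 11, so that for these the minimum itself kept the groups apart. The median log2 fold change (posterior minus anterior) over all tested genes was -0.10. A gene described below as higher or lower met the study thresholds, and a gene that also passed the adjusted test is named as such. Counts over the gene lists below are to be read beside the shares of 1.48% (posterior) and 1.40% (anterior) over all tested genes.

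**Figure D1:**
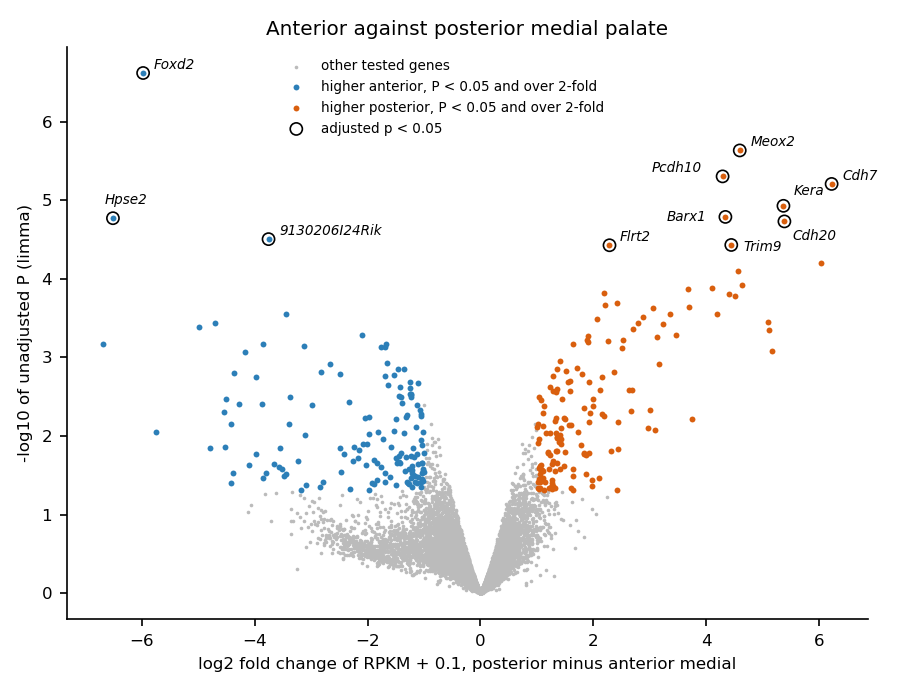
Log2 fold change of RPKM + 0.1 (posterior minus anterior medial, horizontal) against -log10 of the unadjusted limma P (vertical) for the 10359 tested genes; coloured points met P under 0.05 and a fold change over 2, and black circles mark the 11 genes with an adjusted p under 0.05. Foxd2 stands highest on the anterior side, where the position of a gene listed at 0 in 1 group depends on the pseudocount, and Meox2 stands highest on the posterior side.

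Both counts depended on single libraries. Without posterior medial 2, 91 genes (0.878%) passed the adjusted test, all 11 among them, and 345 (3.33%) met the study thresholds, 167 higher in posterior (1.61%) and 178 in anterior (1.72%). Without posterior medial 1, within 1 run, 2 genes passed the adjusted test (0.0193%), namely Foxd2 and Mir302a, the first of them among the 11, and 376 met the study thresholds (3.63%). Leaving out anterior medial 1, 2 or 3 left 1, 0 and 0 adjusted calls by limma with 237, 211 and 234 genes at an unadjusted P under 0.05, and leaving out posterior medial 3 left 9. The 11 genes each met the study thresholds in all 6 of these fits, with a largest adjusted p between 0.0794 (Foxd2) and 0.374 (Flrt2).

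Among transcription factors, Meox2, a homeobox factor of limb and craniofacial muscle and mesenchyme (chr12:37835133-37906115, mm9), was at 6.51, 8.31 and 6.35 RPKM in anterior medial 1, 2 and 3 and at 170, 214 and 139 RPKM in posterior medial 1, 2 and 3. The lowest posterior library was thus far above the highest anterior one, with a log2 fold change of 4.6 ± 0.27 (SE), 24.2-fold, and a limma adjusted p of 0.012. Barx1, a homeobox factor of the posterior palate, molar field and stomach mesenchyme (chr13:48758405-48761876), was at 4.05, 6.05 and 2.95 RPKM in the anterior and 114, 80.5 and 70.4 RPKM in the posterior libraries. Its log2 fold change was 4.34 ± 0.36 (SE), with a limma adjusted p of 0.024. Within 1 run Meox2 and Barx1 kept log2 fold changes of 4.6 and 4.14.

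RefSeq windows (GRCm38.p6) were found for 10 of the 11 genes with an adjusted p under 0.05, 12 windows in all because Cdh7 has 3. The 250 bases upstream of the start are shown for Meox2, Barx1, Kera and Pcdh10, as 4 posterior genes whose windows are unlike each other. Capitals mark TATAAA (or its reverse complement TTTATA) and CCAAT (or ATTGG), searched on both strands.
Meox2, chr12:37108290-37108539, plus strand: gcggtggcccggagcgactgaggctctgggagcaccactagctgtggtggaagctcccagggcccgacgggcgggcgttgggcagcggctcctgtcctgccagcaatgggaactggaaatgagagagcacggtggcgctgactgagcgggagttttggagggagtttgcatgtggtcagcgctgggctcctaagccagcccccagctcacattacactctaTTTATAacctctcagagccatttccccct
Barx1, chr13:48662786-48663035, plus strand: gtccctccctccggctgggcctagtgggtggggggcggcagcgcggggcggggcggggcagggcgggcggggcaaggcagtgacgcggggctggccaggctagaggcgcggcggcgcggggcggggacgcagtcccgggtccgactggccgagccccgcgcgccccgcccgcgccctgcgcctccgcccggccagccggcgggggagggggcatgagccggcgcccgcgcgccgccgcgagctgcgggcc
Kera, chr10:97606955-97607204, plus strand: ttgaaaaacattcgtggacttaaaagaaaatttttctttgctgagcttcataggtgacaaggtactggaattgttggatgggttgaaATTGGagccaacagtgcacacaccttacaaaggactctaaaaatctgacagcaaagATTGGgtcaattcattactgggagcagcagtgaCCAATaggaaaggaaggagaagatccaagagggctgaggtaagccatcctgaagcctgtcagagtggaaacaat
Pcdh10, chr3:45378148-45378397, plus strand: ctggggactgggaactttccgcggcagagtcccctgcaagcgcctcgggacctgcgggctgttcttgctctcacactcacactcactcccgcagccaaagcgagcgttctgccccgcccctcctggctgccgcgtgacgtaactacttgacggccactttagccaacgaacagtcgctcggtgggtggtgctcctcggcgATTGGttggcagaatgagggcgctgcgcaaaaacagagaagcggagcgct
The Barx1 window held 40 CpG dinucleotides and the Pcdh10 window 22, against 12 for Meox2, 1 for Kera and a median of 6 over 32851 windows. CCAAT stood in 4 of the 12 windows of called genes, 3 times in that of Kera, and in 33.8% of all windows. TATAAA stood in 1 of the 12, that of Meox2, and in 12.4% of all windows. The homeodomain core TAATTA stood in 1 of the 12 (Cdh7) and in 4.84% of all windows. These matches describe the letters of the windows only.

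Among the other homeobox and paired-box factors, Dlx1 was at 0.866, 0.157 and 0.397 RPKM in the anterior and 7.99, 37.8 and 16.3 RPKM in the posterior libraries (log2 fold change 5.11 ± 0.72 SE, limma adjusted p 0.122). Dlx1as overlaps Dlx1, and the strand of the counting is not given in the sources used here, so reads of this pair cannot be told apart. Shox2, a homeobox gene of the anterior palate, was at 116, 106 and 113 RPKM in the anterior and at 0.0572, 5.69 and 9.60 RPKM in the posterior libraries, none of which came near the anterior level. Its log2 fold change was -5.76 ± 1.53 (SE) with a P of 0.00897 and an adjusted p of 0.615 by limma, with posterior medial 1 far below the other posterior libraries. Within 1 run its log2 fold change was -3.90 with a P of 6.09e-05. Alx1, a factor of frontonasal mesenchyme, was at 39.0, 54.4 and 65.1 RPKM in the anterior and at 1.94, 0 and 0.52 RPKM in the posterior libraries. Without posterior medial 2 the Alx1 difference had an adjusted p of 0.00789 by limma. Pax3, a neural crest factor, was lower in the posterior libraries by 1.67 on the log2 scale (51.0 ± 3.49 against 16.3 ± 3.64 RPKM, mean ± SD, n = 3 each), and Alx4 (29.9 ± 3.67 against 8.91 ± 6.60 RPKM) was lower too.

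In the list of homeobox and paired-box factors, 25 of 41 genes were tested, 4 were higher in the posterior and 6 in the anterior libraries, and the median log2 fold change was -0.51 beside -0.10 over all genes (-0.32 beside -0.02 without posterior medial 2). Meox2 and Barx1 passed the adjusted test. Of the 10, Six2 lost the thresholds without anterior medial 2 or 3 or posterior medial 1 (P up to 0.0796), and Six4 without any 1 of the anterior libraries (P up to 0.0753). The abundant members Prrx1 (136 ± 0.947 against 79.3 ± 32.6 RPKM) and Pax9 (102 ± 19.8 against 84.6 ± 23.9 RPKM) did not meet them. Msx1, an anterior palate factor, reached 5 RPKM in only 1 library and was not tested, at 2.34, 2.45 and 5.95 RPKM in the anterior and 0, 0.419 and 0 RPKM in the posterior libraries. The transcript Msx1as, which overlaps Msx1, was at 13.3, 13.4 and 14.7 RPKM in the anterior and 1.51, 0 and 1.18 RPKM in the posterior libraries, and reads of this pair cannot be told apart either.

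**Figure D2:**
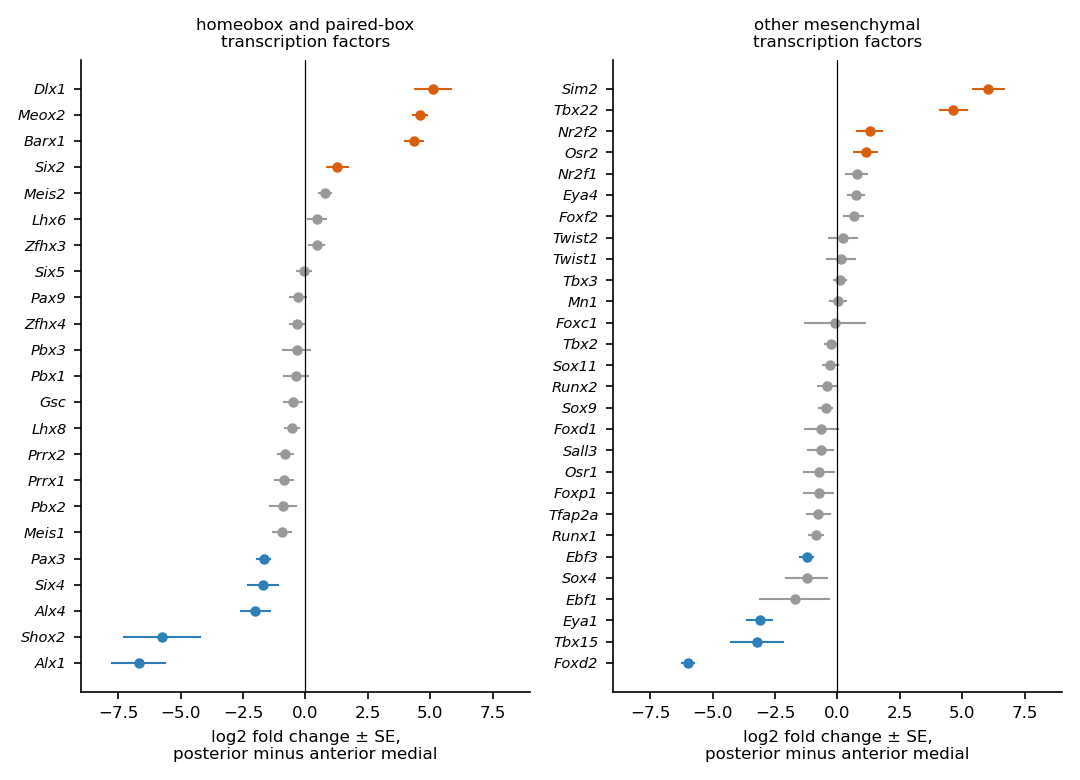
Log2 fold change (posterior minus anterior medial) with its SE for tested members of both transcription factor lists; orange points were higher in posterior and blue points higher in anterior at the study thresholds, grey points met neither. Dlx1, Meox2, Barx1, Sim2 and Tbx22 stand apart on the posterior side, and Alx1, Shox2 and Foxd2 on the anterior side, with Foxd2 listed at 0 in all posterior libraries.

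Of the other mesenchymal factors, 28 of 49 genes in the table were tested, with 4 higher in posterior and 4 in anterior, and a median log2 fold change of -0.35. The split was 2 and 7 without posterior medial 2, and 3 and 7 within 1 run. Foxd2, a forkhead factor (chr4:114578885-114581503, mm9), was at 5.02, 6.52 and 7.30 RPKM in the anterior libraries and was listed at 0 in all 3 posterior ones, for which no fold change is given. It had the lowest limma adjusted p of the comparison, 0.00248. The 3 posterior values had no spread at the floor, which lowers this p, and Foxd2 passed the minimum through the anterior libraries alone. The transcript 9130206I24Rik lies 390 bases from Foxd2 (chr4:114581894-114594572) and went the same way, at 10.4, 12.9 and 22.7 RPKM in the anterior and 0.93, 1.08 and 0.94 RPKM in the posterior libraries (log2 fold change -3.76 ± 0.34 SE, adjusted p 0.0352). Both transcripts of this locus were thus at or near the bottom of their range in every posterior medial library.

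Sim2, a bHLH-PAS factor, was at 0.88, 0.15 and 0.455 RPKM in the anterior and 62.3, 21.6 and 28.6 RPKM in the posterior libraries (log2 fold change 6.04 ± 0.63 SE), with an adjusted p of 0.0549 by limma, just over the threshold. Tbx22, the T-box factor whose loss causes X-linked cleft palate, was at 1.38, 3.17 and 3.58 RPKM in the anterior and 41.4, 120 and 55.8 RPKM in the posterior libraries (4.64 ± 0.54 SE, adjusted p 0.0874). In the anterior direction, Eya1, a transcriptional coactivator, was at 38.0 ± 6.54 against 4.93 ± 3.42 RPKM, Ebf3 at 26.0 ± 0.358 against 11.2 ± 2.51 RPKM and Tbx15 at 11.9 ± 1.53 against 1.99 ± 1.62 RPKM. Osr2 (40.9 ± 2.84 against 100 ± 50.2 RPKM) and Nr2f2 (6.57 ± 2.12 against 17.8 ± 10.7 RPKM) were called higher in posterior on thin support. Osr2 kept the thresholds only in the fit without posterior medial 3 (P up to 0.134 in the others), Nr2f2 lost them without anterior medial 2 or 3 or posterior medial 1 or 2 (P up to 0.125), and Tbx15 without anterior medial 1 or 2 (P up to 0.0560). Sox9 and Twist1, at 56.0 and 93.9 RPKM on average in the anterior libraries, did not meet the thresholds.

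In the list of cadherins, protocadherins and Flrt proteins, 16 genes were tested. Of these, 5 were higher in posterior and none in anterior, 3 of them at an adjusted p under 0.05 by limma. Flrt2, which is not a cadherin, is among the 5 and among the 3. The median log2 fold change was 0.41 (0.81 without posterior medial 2). Over all tested genes 1.48% were higher in posterior and 1.40% in anterior at these thresholds. Cdh20 (chr1:106665396-106892058, mm9), a type II cadherin, was at 0.329, 0.655 and 1.24 RPKM in the anterior and 33.2, 36.7 and 26.0 RPKM in the posterior libraries (5.39 ± 0.45 SE, adjusted p 0.024). Pcdh10, a delta-protocadherin (chr3:45182320-45238501), was at 1.30, 0.879 and 0.99 RPKM against 28.9, 21.1 and 18.2 RPKM (4.29 ± 0.29 SE, adjusted p 0.016). Flrt2, a fibronectin and leucine-rich repeat protein that binds Unc5 receptors (chr12:96930436-97023423), was at 26.6, 25.5 and 26.9 RPKM against 133, 117 and 138 RPKM (2.29 ± 0.22 SE, adjusted p 0.0352). The replicates of Flrt2 lay close together in both groups, and the posterior level was 4.88-fold the anterior one.

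Cdh18 was at 0.734, 0.366 and 0.485 RPKM in the anterior and 45.5, 6.45 and 31.1 RPKM in the posterior libraries, posterior medial 2 being the low one, and its limma adjusted p fell from 0.133 to 0.00108 without it. Pcdh9 (17 ± 4.90 against 43.7 ± 28.1 RPKM) lost the thresholds in 4 of the 6 fits without 1 library (without anterior medial 1, 2 or 3 or posterior medial 1, P up to 0.142). Cdh7, a type II cadherin that was not on the list (chr1:111878904-112035578), had the largest posterior fold change of the comparison. It was at 0, 0.0695 and 0.00281 RPKM in the anterior and 14.4, 5.43 and 8.98 RPKM in the posterior libraries (6.23 ± 0.43 SE, adjusted p 0.016), where 1 read of a 2000-base transcript is worth 0.0918 to 0.213 RPKM. Cdh11 and Cdh2, the abundant mesenchymal cadherins at 127 ± 6.70 and 48.5 ± 3.01 RPKM in the anterior libraries, had log2 fold changes of -0.54 and -0.31 and did not meet the thresholds.

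**Figure D3:**
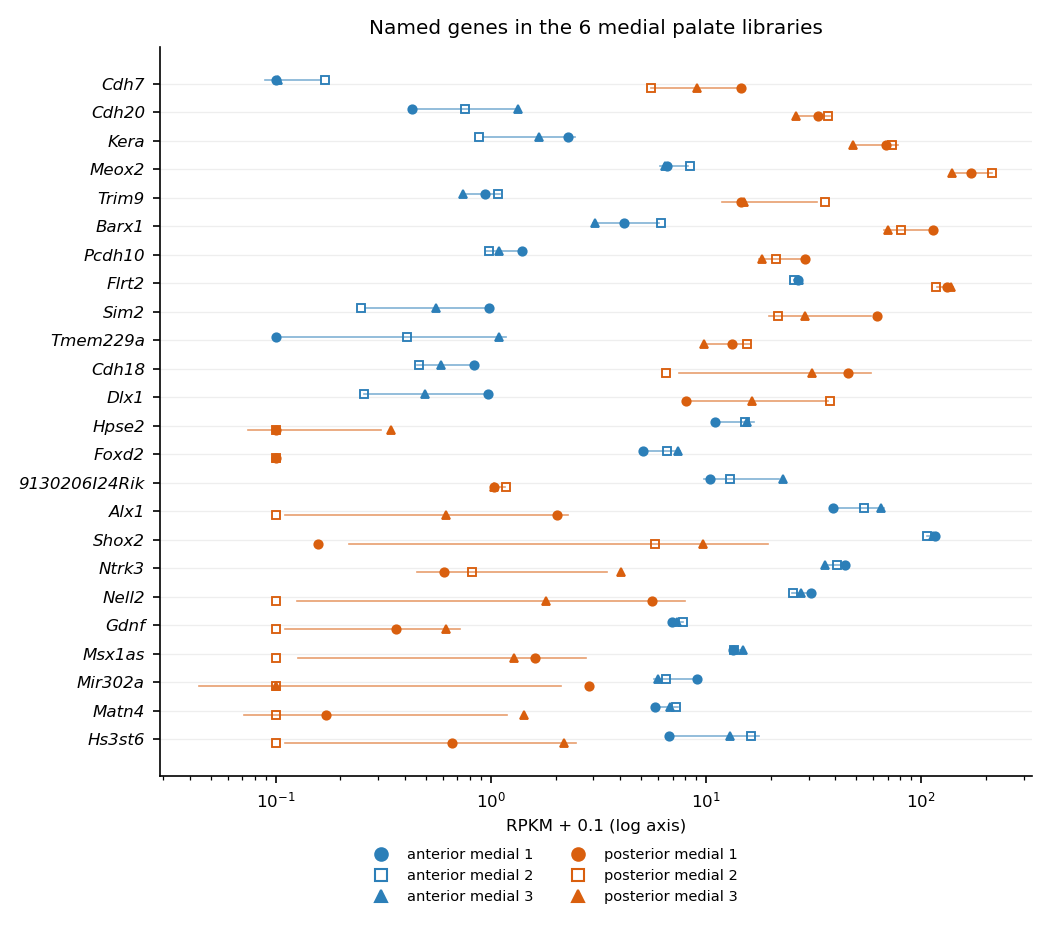
RPKM + 0.1 on a log axis in each of the 6 medial libraries for the 24 genes named by fold change; symbols are single libraries (blue anterior, orange posterior) and lines span the mean ± 1 SD of the log2 values. The blue and orange symbols do not overlap for any of the 24, because genes were named only where the groups did not overlap. The orange lines are long for Shox2, Nell2 and Mir302a, where 1 posterior library stands apart.

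In the extracellular matrix, Kera, the small leucine-rich proteoglycan keratocan known from the cornea (chr10:97069839-97076322, mm9), was at 2.20, 0.782 and 1.58 RPKM in the anterior and 68.4, 73.3 and 48.0 RPKM in the posterior libraries (5.37 ± 0.42 SE, 41.4-fold, adjusted p 0.024 by limma). The proteoglycan genes next to it in the same cluster did not share this. Lum, 34501 bases away, was at 121 ± 13 RPKM in the anterior and 129 ± 39.8 RPKM in the posterior libraries (0.05 ± 0.31 SE), and Dcn, 89042 bases away, at 107 ± 3.42 against 63.0 ± 2.08 RPKM (-0.76 ± 0.21 SE). Hpse2, a heparanase relative that inhibits heparanase (chr19:42863085-43462801), was at 10.9, 15.1 and 15.5 RPKM in the anterior and 0, 0 and 0.243 RPKM in the posterior libraries (-6.51 ± 0.54 SE, adjusted p 0.024). Of 44 tested matrix glycoproteins and proteoglycans, 2 were higher in posterior (Kera and Fndc1) and 5 in anterior (Hpse2, Thbs2, Eln, Cd44 and Ctgf), with a median log2 fold change of -0.31.

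Thbs2, a thrombospondin, was at 61.5, 57.2 and 50.6 RPKM in the anterior and 23, 19.7 and 29.8 RPKM in the posterior libraries. Elastin (Eln) was at 72.7 ± 19.8 against 28.7 ± 9.11 RPKM and the hyaluronan receptor Cd44 at 26.8 ± 4.68 against 7.28 ± 4.74 RPKM. Ctgf (42.4 ± 5.87 against 14.51 ± 10.4 RPKM) lost the thresholds without anterior medial 2 or 3 or posterior medial 3 (P up to 0.0642). Among 19 tested collagens outside bone and cartilage, Col14a1, a fibril-associated collagen, was higher in the anterior libraries (30.2 ± 3.23 against 1.98 ± 1.69 RPKM), while Col25a1 (12.1 ± 2.06 against 33.0 ± 14 RPKM) and Col12a1 (43.8 ± 23.6 against 93.1 ± 12.8 RPKM) were higher in the posterior ones. Col12a1 lost the thresholds without anterior medial 2 or 3 or posterior medial 1 or 3 (P up to 0.0892).

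The cartilage matrix genes Acan and Matn4 were higher in the anterior medial palate. Acan, which encodes aggrecan, was at 7.74, 7.05 and 6.44 RPKM in the anterior and 1.2, 0.114 and 1.09 RPKM in the posterior libraries, and Matn4, a matrilin, at 5.71, 7.15 and 6.72 RPKM against 0.0719, 0 and 1.33 RPKM. They were the only 2 called of 11 tested cartilage genes, and Col2a1, the major cartilage collagen, was at 18.7 ± 7.14 against 20.6 ± 2.10 RPKM. None of 12 tested osteoblast and mineralisation genes met the thresholds in either direction, beside 2.88% of all tested genes (median log2 fold change of the list -0.01, and 0.05 without posterior medial 2). Col1a1, the most abundant collagen of bone, was at 132 ± 13.3 RPKM in the anterior and 223 ± 87.1 RPKM in the posterior libraries, with a P of 0.0937 by limma.

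In the BMP family, 4 of 20 tested genes were higher in posterior and 1 in anterior (median log2 fold change -0.13, and 0.04 without posterior medial 2). Bmp3, an antagonistic BMP, was at 1.94, 1.28 and 4.22 RPKM in the anterior and 66.6, 37.7 and 65.0 RPKM in the posterior libraries, a log2 fold change of 4.57 ± 0.49 (SE) and a limma adjusted p of 0.063. Grem1, a secreted BMP inhibitor (16 ± 1.5 against 39.1 ± 12.64 RPKM), was higher in posterior, and Bmp2 (32.9 ± 3.31 against 15.2 ± 2.87 RPKM) was higher in anterior. Bmp4 was at 6.45, 15.6 and 25.4 RPKM in the anterior and 132, 44.0 and 27.4 RPKM in the posterior libraries, and lost the thresholds without anterior medial 1 or 2 or posterior medial 1 (P up to 0.112).

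In the Wnt family, 2 of 25 tested genes were higher in posterior and 4 in anterior (median log2 fold change -0.28), and within 1 run 2 and 6 were. Wnt5a, a ligand of the non-canonical branch, was at 73.9, 66.3 and 99.0 RPKM in the anterior and 25.2, 4.30 and 28.2 RPKM in the posterior libraries. It was lost without anterior medial 3 (P 0.0532), and had an adjusted p of 0.0477 by limma without posterior medial 2. Its receptor Ror1 (18.7 ± 2.17 against 7.46 ± 4.94 RPKM) was also higher in anterior, but not without anterior medial 3 or posterior medial 1 (P up to 0.0610). The secreted inhibitors Wif1 (22.5 ± 11.2 against 1.63 ± 1.31 RPKM) and Sfrp4 (18.1 ± 2.55 against 4.47 ± 4.51 RPKM) were higher in anterior. The enhancer Rspo3 was the reverse, at 3.38, 6.52 and 10.2 RPKM in the anterior and 54.2, 21.7 and 53.3 RPKM in the posterior libraries, and so was the receptor Fzd4 (5.49 ± 0.859 against 13 ± 1.67 RPKM).

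No member of the FGF list (11 tested) or the hedgehog list (10 tested) met the thresholds, with median log2 fold changes of -0.55 and -0.45 (-0.21 and -0.21 without posterior medial 2). Over all tested genes 2.88% met them, so none called in lists this short is near that share. Within 1 run 1 member of each list met them, higher in anterior. Ptch1, the Shh receptor and target, was at 64.8 ± 14.46 RPKM in the anterior and 37.3 ± 10.9 RPKM in the posterior libraries, a log2 fold change of -0.81 that did not reach 2-fold. Of 17 TGF-beta and activin genes, Inhba alone was called (46.6 ± 12.3 against 20.8 ± 3.80 RPKM), and not without anterior medial 2 (log2 fold change -0.94). Of 8 Notch genes the ligand Jag1 was called (11.4 ± 1.5 against 3.59 ± 1.11 RPKM), and within 1 run 3 members were. In the retinoic acid pathway 3 of 11 genes were higher in anterior and none in posterior, with a median log2 fold change of -0.68 that was -0.00464 without posterior medial 2. They were Aldh1a3, which makes retinoic acid (12.5 ± 6.92 against 1.23 ± 1.08 RPKM), Cyp26b1, which degrades it (59.9 ± 4.52 against 19.6 ± 11.9 RPKM), and Crabp1, which binds it in the cytoplasm (138 ± 46.6 against 36 ± 22.6 RPKM). Aldh1a3 lost the thresholds without anterior medial 3 (P 0.0543) and Cyp26b1 without anterior medial 1 or 3 (P up to 0.0587).

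Gdnf, a ligand of Ret, was at 6.86, 7.73 and 7.27 RPKM in the anterior and 0.262, 0 and 0.517 RPKM in the posterior libraries (-4.71 ± 0.66 SE, limma adjusted p 0.122, and 0.00304 without posterior medial 2). Ntrk3, the receptor of neurotrophin-3, was at 44.3, 40.5 and 35.6 RPKM in the anterior and 0.505, 0.715 and 3.91 RPKM in the posterior libraries (-5.0 ± 0.72 SE). Its ligand Ntf3 was higher in the posterior libraries, at 19.8, 38.5 and 22.4 RPKM against 6.72, 6.53 and 8.96 RPKM in the anterior ones (1.80 ± 0.34 SE). The levels of receptor and ligand thus did not overlap between the groups, in opposite directions.

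Nell2, a secreted neural EGF-like protein, was at 30.7, 25.2 and 27.6 RPKM in the anterior and 5.50, 0 and 1.70 RPKM in the posterior libraries. In the list of PDGF, IGF, EGF, chemokine and neurotrophic factors, 3 of 22 tested genes were higher in posterior and 4 in anterior (median log2 fold change -0.20, and -0.11 without posterior medial 2). The chemokine Cxcl12 was at 44.8 ± 6.14 RPKM in the anterior and 13.4 ± 3.48 RPKM in the posterior libraries. Calls of Cxcl14, Agtr2 and Igfbp5 were each lost in 4 fits without 1 library (P up to 0.0950, 0.0885 and 0.121), those of Cxcl14 without any anterior library or posterior medial 1, of Agtr2 without any anterior library or posterior medial 2, and of Igfbp5 without anterior medial 2 or 3 or posterior medial 1 or 2. Pdgfc was lost without anterior medial 1 or posterior medial 3, where its log2 fold change was as low as 0.80.

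Among axon guidance genes, 4 of 29 tested were higher in posterior and 5 in anterior (median log2 fold change -0.24). The split was 6 and 5 and the median 0.07 without posterior medial 2. The receptors Nrp1 (28.9 ± 0.434 against 10.9 ± 3.41 RPKM) and Nrp2 (24.1 ± 2.13 against 10.1 ± 1.63 RPKM), the ligand Sema3e (27.0 ± 7.12 against 4.38 ± 4.32 RPKM) and Slit3 (32.9 ± 8.0 against 10.001 ± 1.25 RPKM) were higher in anterior. Sema3d (7.37 ± 1.81 against 24.4 ± 5.84 RPKM) and Ntng1, a membrane-anchored netrin relative (1.40 ± 0.284 against 14.54 ± 7.87 RPKM), were higher in posterior. The call of Sema3c was lost without anterior medial 1 or 2 or posterior medial 1 or 3 (P up to 0.0704), Sema5b without anterior medial 1 (P 0.0514) and Ntn1 without posterior medial 1 (P 0.0517). Of 15 Eph receptors and ephrins Efnb1 was called (36.3 ± 7.60 against 16.3 ± 5.86 RPKM), and not without anterior medial 1 (P 0.0568) or posterior medial 2 (log2 fold change -0.92).

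Of the remaining genes named by fold change, Trim9, a brain-enriched ubiquitin ligase (chr12:71345524-71448601, mm9), was at 0.84, 0.978 and 0.639 RPKM in the anterior and 14.4, 35.5 and 15 RPKM in the posterior libraries (4.45 ± 0.42 SE, limma adjusted p 0.0352). Tmem229a was at 0, 0.306 and 0.99 RPKM against 13.2, 15.4 and 9.72 RPKM. Hs3st6, a heparan sulfate 3-O-sulfotransferase, was at 6.66, 16.1 and 12.9 RPKM in the anterior and 0.56, 0 and 2.08 RPKM in the posterior libraries. Mir302a, a locus inside Larp7, was at 8.96, 6.45 and 5.90 RPKM against 2.77, 0 and 0 RPKM, values that stand for very few reads at so short a locus, and it was lost without posterior medial 3 (P 0.0502). Of 15 imprinted genes, Zim1 (38.1 ± 1.95 against 8.56 ± 4.57 RPKM) and Nnat (127 ± 11.8 against 54.3 ± 11.5 RPKM) were higher in anterior. None of 35 cell cycle, 12 immediate early or 12 heat shock and unfolded protein genes met the thresholds, with median log2 fold changes of 0.12, 0.05 and -0.16 (0.17, 0.36 and 0.01 without posterior medial 2), and within 1 run 1 cell cycle gene did, in the anterior direction. These counts are near the share of 2.88% over all tested genes for lists of this size. Of 8 sex-linked transcripts, 5 were tested, and none met the thresholds or had groups that did not overlap. Their median log2 fold change was -1.48 beside -0.10 over all genes, and -2.80 beside -0.02 without posterior medial 2. The part of embryo sex in the differences was not tested.

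The 11 red cell genes summed to 463 to 879 RPKM in the anterior and 889 to 1104 RPKM in the posterior libraries, which did not overlap (exact permutation test, two-sided, p 0.1, the smallest that 3 against 3 samples allow). This separation rested on Hba-a2, at 80.1 RPKM in posterior medial 1, 1.08 RPKM in anterior medial 1 and far below 80.1 RPKM in every other medial library. The sums of posterior medial 1 (889 RPKM) and anterior medial 1 (879 RPKM) lay closer together than their Hba-a2 values. Without Hba-a2 the red cell sums of the groups would therefore overlap. The 19 macrophage and myeloid genes summed to 121 to 317 RPKM against 289 to 525 RPKM (exact permutation test, p 0.2). Of the 14 myeloid genes tested, Mrc1 was called higher in posterior (14.3 ± 4.50 against 33.1 ± 11.1 RPKM), and not without anterior medial 2 or 3 (P up to 0.0656) or posterior medial 2 (log2 fold change 0.94). The sums of 34 epithelial, 22 endothelial, 14 smooth muscle, 31 skeletal muscle and 21 nerve markers overlapped between the groups. In these lists Dsp (epithelium), Abcc9 (pericytes) and the neuropeptide Gal were called higher in anterior and the neurofilament gene Nefl in posterior (0.795 ± 0.202 against 12.9 ± 8.50 RPKM), and of these 4 only Nefl kept its call in every fit without 1 library. No epithelial marker was at 0 in all 6 libraries. With posterior medial 2 left out, 1 of 13 epithelial genes was called higher in posterior and 3 in anterior, 1 of 6 red cell genes was called higher in posterior, and no myeloid gene was called. The part of blood and myeloid cells in the other differences was not tested.

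**Figure D4:**
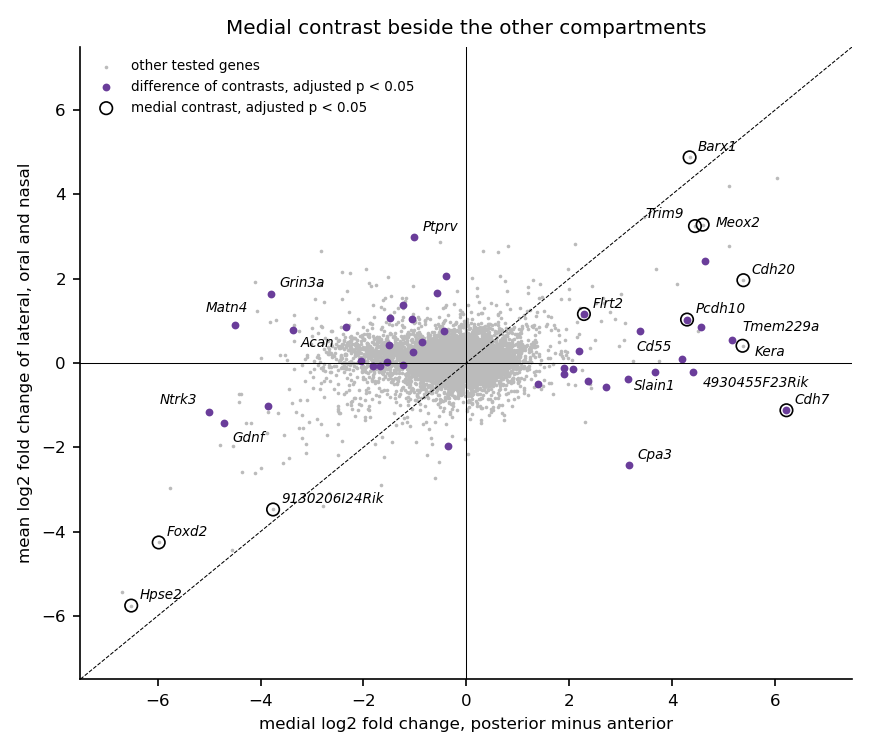
Medial log2 fold change (posterior minus anterior, horizontal) against the mean of the lateral, oral and nasal log2 fold changes (vertical) for the 10359 genes; purple points had an adjusted p under 0.05 for the difference between both, black circles mark the 11 medial calls and the dashed line marks equal values. Barx1, Hpse2 and 9130206I24Rik lie near the dashed line, and Cdh7 and Cpa3 lie below 0 on the vertical axis with positive medial values.

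The same anterior to posterior contrast was then read in the lateral, oral and nasal libraries, which share no sample with the medial ones. Of the 11 medial genes with an adjusted p under 0.05, 10 went the same way in lateral, 10 in oral and 7 in nasal, and 8, 10 and 6 of them met the study thresholds there. Of the 298 genes at the study thresholds, 252, 220 and 189 went the same way (84.6%, 73.8% and 63.4%, beside 62.4%, 43.5% and 45% of all tested genes). Those that also met the thresholds were 100 in lateral, 78 in oral and 74 in nasal, and 39 did so in all 3 (13.1%, beside 0.550% of all tested genes). Without posterior medial 2, 112, 85 and 85 of 345 genes did so. The background in these compartments was 289 genes at the study thresholds in lateral (2.79%), 203 in oral (1.96%) and 509 in nasal (4.91%).

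Barx1 was higher in posterior in all 4 compartments, with log2 fold changes of 4.34 medial, 4.53 lateral, 6.02 oral and 4.09 nasal. Hpse2 went from 10.9 to 15.5 RPKM in anterior medial libraries to 0.243 RPKM at most in posterior ones, and its log2 fold changes elsewhere were -6.40, -5.22 and -5.65. Meox2 was highest in posterior medial libraries (175 ± 37.9 RPKM), followed by posterior lateral (108 ± 49.8 RPKM), posterior oral (91.5 ± 20.8 RPKM) and posterior nasal (35.7 ± 7.62 RPKM). Posterior medial and lateral libraries overlapped in range, at 139 to 214 and 52.8 to 150 RPKM, and the oral range of 78.8 to 116 RPKM lay inside the lateral one. Kera did not keep 1 direction: its log2 fold change was 5.37 in medial, 1.35 in lateral, 3.36 in oral and -3.48 in nasal libraries. The posterior lateral libraries ran from 0.43 to 169 RPKM, and the test of the medial against the other contrasts gave an adjusted p of 0.281.

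**Figure D5:**
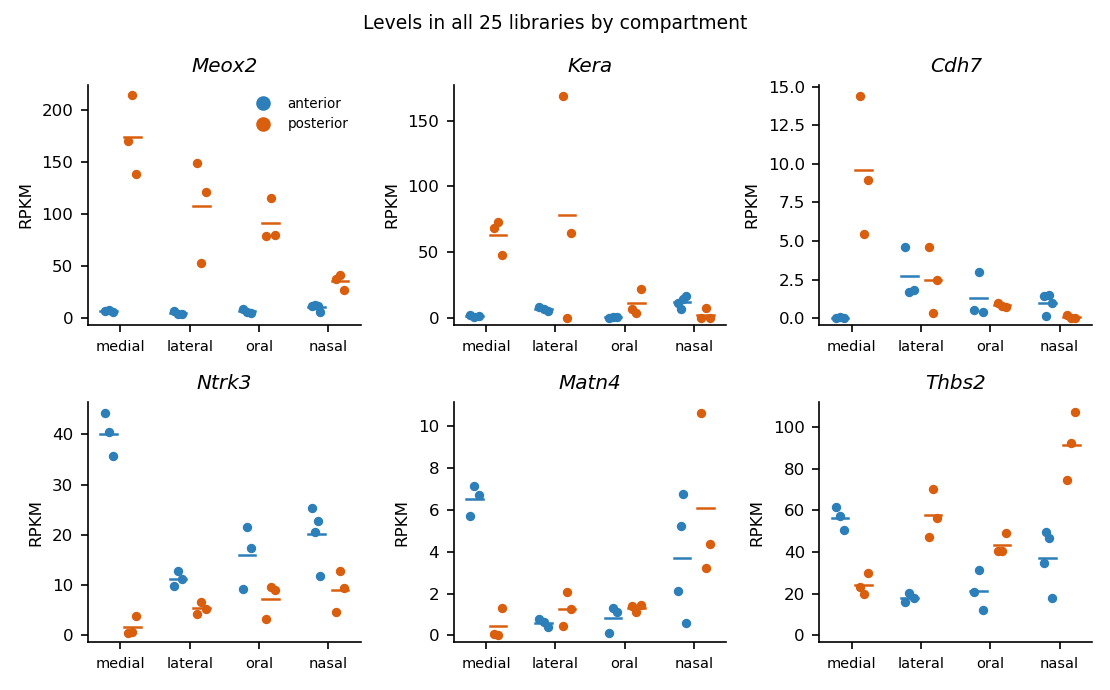
RPKM of 6 genes in all 25 libraries, by compartment, with points for single libraries (blue anterior, orange posterior) and bars for group means. Meox2 is higher in posterior in each compartment, Cdh7 and Ntrk3 have their widest gap in medial libraries, and Thbs2 is higher in anterior in medial libraries and higher in posterior in the other 3.

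The difference between the medial contrast and the mean of the 3 others was tested itself in a fit over all 25 libraries. All groups shared the same estimate of the spread of a gene. The median SD of log2 values was 0.623 in the posterior medial group and 0.141 to 0.458 in the other groups. The SE and p-values of this test may thus understate the spread of the posterior medial libraries. It passed an adjusted p of 0.05 by limma for 42 genes (0.405%), 20 with a positive and 22 with a negative difference. Of these, 36 met the study thresholds in the medial comparison (2.88% of all tested genes did), and 17 had a sign in all 3 other compartments opposite to that in medial. The 42 were selected for a medial contrast unlike the others, which favours both counts, so neither is a result about these genes. Without posterior medial 2, 27 of the 42 still passed, of 33 in all (0.319%). With the sequencing run as a covariate 3 did, Thbs2, Zim1 and Acan. Leaving out 1 library gave 18 to 415 such genes, the lowest without anterior medial 2 and the highest without posterior medial 3, and 20 without anterior medial 1 and 24 without anterior medial 3.

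Cdh7 had the largest difference, 7.35 ± 0.93 (SE, adjusted p 0.00152). Its posterior medial level of 9.61 ± 4.53 RPKM stood beside 2.46 ± 2.13, 0.83 ± 0.115 and 0.0625 ± 0.108 RPKM in posterior lateral, oral and nasal libraries. The anterior medial libraries, at 0.0695 RPKM at most, stood beside group means of 1.01 to 2.73 RPKM in the other anterior groups. Pcdh10 (difference 3.26 ± 0.47 SE, adjusted p 0.00348) and Flrt2 (1.12 ± 0.23 SE, adjusted p 0.0263), of the same adhesion list, also had a wider step in medial. Bmp3 was at 2.48 ± 1.54 RPKM in anterior medial libraries and 11.8 to 12.2 RPKM on average in the other anterior groups, and at 56.4 ± 16.3 RPKM in posterior medial libraries against averages of 17 to 25.2 RPKM, a difference of 3.72 ± 0.62 (SE, adjusted p 0.00652).

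On the negative side, Ntrk3 was at 40.1 ± 4.32 RPKM in anterior medial libraries against averages of 11.3 to 20.1 RPKM in the other anterior groups (difference -3.84 ± 0.63 SE, adjusted p 0.00645), and Gdnf at 7.28 ± 0.436 RPKM against 0.551 to 2.36 RPKM (-3.28 ± 0.68 SE, adjusted p 0.0304). Thbs2 was higher in anterior by 1.24 on the log2 scale in medial libraries and higher in posterior by 1.66, 1.11 and 1.38 in the lateral, oral and nasal ones (difference -2.62 ± 0.39 SE, adjusted p 0.00348). Ptprv, a receptor-type phosphatase of bone-forming cells, was at 8.35 ± 1.98 RPKM in anterior and 4.10 ± 0.904 RPKM in posterior medial libraries, while its log2 fold changes elsewhere were 3.02, 2.82 and 3.11 (difference -3.99 ± 0.54 SE, adjusted p 0.00179). Its medial call by itself was lost without anterior medial 1 or 2 or posterior medial 1 (P up to 0.0680). Acan and Matn4 were higher in anterior in the medial libraries alone, with differences of -4.15 ± 0.87 (SE, adjusted p 0.0305) and -5.41 ± 1.03 (SE, adjusted p 0.0161). Of the genes with a difference, Wif1, Jag1, Crabp1, Zim1, Ntng1 and Tbx22 are named above as medial calls, with differences of -2.85, -1.62, -2.10, -3.19, 3.53 and 2.22.

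Cpa3, a protease of mast cells, had a difference of 5.59 ± 1.12 (SE, adjusted p 0.0263). It was at 1.05, 3.36 and 2.97 RPKM in the anterior and 27.0, 27.2 and 11.8 RPKM in the posterior medial libraries, and ran the other way elsewhere, with 50.2 ± 19.4 RPKM in anterior nasal and 2.27 ± 1.34 RPKM in posterior nasal libraries. A list of 12 mast cell genes was written after this value was seen, and its 11 genes other than Cpa3 summed to 18.4 to 18.9 RPKM in the anterior and 32.5 to 85.8 RPKM in the posterior medial libraries. The single genes differed between posterior libraries. Cma1 was at 22.7, 0 and 8.91 RPKM, Mcpt4 at 10.9, 0 and 0 RPKM and Tpsb2 at 1.35, 33.2 and 2.14 RPKM. Srgn made up 39.01 RPKM of the sum of 85.8 RPKM in posterior medial 2. Gata2 went the other way, with a mean of 3.05 RPKM in the anterior and 1.31 RPKM in the posterior libraries. The groups overlapped for Gata2, Kit and Slc18a2, and Fcer1a and Ms4a2 were at 0.256 RPKM at most. None of the 12 was at 0 in all 6 libraries, and the part of mast cell number in the Cpa3 difference was not tested.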

How the data were processed

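RNA from laser captured compartments of E14.5 CD1 mouse palates was purified with a Qiagen RNeasy kit (Mini in the labels, Micro in the study's methods), amplified (NuGEN Ovation V2), tagmented (Nextera) and sequenced on an Illumina HiSeq. The authors deposited 1 table of RPKM values per gene for 25 libraries. The submitters' processing notes name TopHat and mm9, and the study's methods name GeneSpring and a filter against duplicates and against reads aligned more than once. The strand setting is not given in the sources used here. The table gives no read counts, so depth was estimated from the steps between low RPKM values at 3.24 to 3.28 M reads in the anterior and 2.35 to 5.45 M reads in the posterior medial libraries, and 1 read in a 2000-base transcript is then worth 0.0918 to 0.213 RPKM. Of 1221 genes with a listed transcript length, 473 matched this depth and 36 the next best one. The estimates lie far below the average read number per sample in the study's methods, and the reason was not tested.

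Samples were grouped by their labels. Genes that reached 5 RPKM in 3 or more medial libraries were tested on log2(RPKM + 0.1) with limma 3.58.1 (R 4.3.3), posterior minus anterior, two-sided, with Benjamini-Hochberg adjustment over 10359 genes. Fold changes are on this scale, which understates the change of low genes. Calls used an adjusted p under 0.05 or the thresholds of the study between pairs of compartments (P under 0.05, taken here as unadjusted, with more than a 2-fold change). Its own anterior to posterior comparison instead pooled all compartments in an Audic-Claverie test with a higher minimum. The medial contrast less the mean of the lateral, oral and nasal contrasts was fitted over all 25 libraries. The fit was tested on simulated data. Up to 12 genes in each direction were named by fold change, those past the adjusted test first and then those at the study thresholds, all with groups that did not overlap, and up to 6 in each direction by the difference between compartments. List members at the study thresholds and up to 4 other members per list with the highest mean RPKM could also be named. Msx1, Lum, Dcn, Col2a1 and Slc19a2 fall outside these rules and were chosen after their values were seen. The counts over lists include a few members that are not reported here. Members and lists were chosen with earlier results of these data known, and the mast cell genes after Cpa3 had been seen. Alternatives covered the pseudocount, the scaling, the filter, the variance model, a replicate block, all 25 libraries in 1 fit, run as a covariate, sample weights and leaving out each library.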

Additional observations from a re-analysis of the deposited data

Results flagged for a closer look

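The 12 genes below differed between compartments in the test of the medial contrast less the mean contrast of the lateral, oral and nasal libraries (limma over all 25 libraries, Benjamini-Hochberg adjusted). The values are differences between log2 fold changes, and positive ones mean a medial contrast more toward posterior.

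Cdh7, a type II cadherin, had a difference of 7.35 (adjusted p 0.00152), and Ptprv, a receptor-type phosphatase, of -3.99 (adjusted p 0.00179). Ntrk3, the neurotrophin-3 receptor, had a difference of -3.84 (adjusted p 0.00645). These 3 kept an adjusted p under 0.05 under every alternative in which their difference was tested, except the run covariate, where it was 0.0658, 0.0658 and 0.226. At a minimum of 10 RPKM Cdh7 and Ptprv were not tested.

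Grin3a, an NMDA receptor subunit, had a difference of -5.45 (adjusted p 0.00889), and Tmem229a of 4.6 (adjusted p 0.0132). Both lost the call without anterior medial 1 or 2 and with the run covariate. The matrix genes Matn4 and Acan had differences of -5.41 (adjusted p 0.0161) and -4.15 (adjusted p 0.0305), and Gdnf one of -3.28 (adjusted p 0.0304). Without posterior medial 2 the adjusted p was 0.0668 for Matn4, 0.116 for Acan and 0.0996 for Gdnf.

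Cpa3, a mast cell protease, had a difference of 5.59 (adjusted p 0.0263, and 0.0711 without posterior medial 2). The uncharacterised transcript 4930455F23Rik, 10229 bases from Slc19a2, had one of 4.62 (adjusted p 0.0263), and Slc19a2, a thiamine transporter, differed too (1.90, adjusted p 0.00645). Cd55, an inhibitor of complement, had a difference of 4.10 (adjusted p 0.0304) and Slain1, a microtubule-associated protein, of 3.88 (adjusted p 0.0305). Without posterior medial 2 these were at an adjusted p of 0.086 (4930455F23Rik), 0.0783 (Cd55) and 0.0654 (Slain1).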

How the results depend on the processing

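The 11 genes with an adjusted p under 0.05 became 23 with a pseudocount of 1 RPKM, 68 after quantile normalization, 4 with a mean-variance trend, 5 with no filter on low values, 166 with all 25 libraries in 1 fit, 136 with the run added there and 72 with sample weights. Leaving out 1 library gave 0 to 91. The 298 genes at the study thresholds became 469 after quantile normalization, 776 without the filter (278 posterior, 498 anterior), 807 with all 25 libraries (202 and 605) and 1646 with the run added (402 and 1244). Leaving out 1 library gave 194 to 734, with 734 without posterior medial 3. The 42 genes that differed between compartments became 67 after quantile normalization (51 positive, 16 negative), 22 at a minimum of 10 RPKM and 3 with the run covariate, and 18 to 415 without 1 library. The medial genes that met the thresholds in the same direction elsewhere went from 100, 78 and 74 in lateral, oral and nasal to 171, 155 and 163 without the filter, and to 66 in lateral at 10 RPKM. Leaving out 1 medial library gave 82 to 112, 66 to 85 and 55 to 85. With the replicate number as a block, 0 genes passed the adjusted test and 360 had an unadjusted P under 0.05 by limma. Same-numbered libraries had correlations of deviations of 0.103, 0.00578 and 0.154, and differently numbered ones ran from -0.123 to 0.00436. The same-numbered values were the highest, but not all were above 0.1, and the main fit left the samples unpaired. Whether the numbers pair the samples is not given in the labels. None of the 24 genes named by fold change changed sign under any alternative run. They were chosen for groups that did not overlap, so leaving out a library or changing the pseudocount could not reverse them. Lum and Twist1, which were not called, went from 0.05 and 0.15 to -0.16 and -0.43 on the log2 scale without posterior medial 2. The cause of these changes was not tested. The sample-weight and run settings were chosen after seeing the data. Depth limits values near 0.2 RPKM to about 1 read.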

Other observations

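Several genes outside the lists had a medial contrast that differed from that of the other compartments. Pou3f3, a POU factor of the maxillary mesenchyme, was higher in posterior by 2.71 on the log2 scale in the medial libraries, with a difference of 3.27 ± 0.55 (SE, limma adjusted p 0.00652), and Vegfc, a ligand for lymphatic vessels, by 2.36 (difference 2.78 ± 0.51 SE, adjusted p 0.0108). Ncam2, an adhesion molecule, was higher in posterior by 2.07 (difference 2.21 ± 0.38 SE, adjusted p 0.00791). The imprinted gene Usp29 was lower in posterior, at -1.53 (difference -1.56 ± 0.26 SE, adjusted p 0.00645). Slit2, a guidance ligand, did not meet the medial thresholds at -0.35, while its log2 fold changes were -2.58, -1.73 and -1.59 in the lateral, oral and nasal libraries (difference 1.62 ± 0.28 SE, adjusted p 0.0075). These 5 were chosen after their values were seen.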
